A study of Mus musculus with 12 samples.

Results

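Elmo3, its paralogs Elmo1 and Elmo2, and their partner Dock1 were followed in whole mouse embryos at E10.5, in mid-gestation. All probe sets whose single gene symbol in the platform annotation is one of these 4 names were taken, which gave 8 probe sets, 1 for Elmo3, 3 for Elmo1, 2 for Elmo2 and 2 for Dock1, among 18193 genes with a single-symbol probe set. Elmo3 was chosen by its high values in acd and double mutant arrays of this series, so its level there is described and not tested. The paralogs and Dock1 were added as its relatives. RNA of 12 embryos was measured on Affymetrix expression arrays, with 1 array per embryo and 3 embryos per genotype. Embryos labelled acd were homozygous for the acd allele of Acd (genotype Acdacd/acd), embryos labelled double were homozygous for acd and lacked p53 (Acdacd/acd, p53-/-), embryos labelled p53 lacked p53 alone (p53-/-), and wt embryos were wild type. The labels name no treatment and no other allele, they do not describe the 2 mutations, and neither strain nor litter is stated in the sources at hand.

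Elmo proteins are scaffolds without enzyme activity of their own. They bind Dock1 (also called Dock180), and the pair acts as an exchange factor that loads GTP onto the small GTPase Rac, which drives the actin changes needed for cell migration and for the engulfment of dying cells. Elmo1 and Elmo2 are the better studied mammalian paralogs, and the worm protein CED-12, required for the clearance of cell corpses, is their counterpart. Acd encodes TPP1, a subunit of shelterin, the complex that covers telomeres. The p53 protein is a transcription factor that answers DNA damage with cell cycle arrest or cell death. The acd allele, adrenocortical dysplasia, is a spontaneous mouse mutation of Acd.

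Values are RMA log2 values as deposited, on which 1 unit is a doubling of signal, and they set 1 gene's level against itself in other embryos, not against another gene. Array medians lay between 5.32 and 5.40. Double mutant replicates 1 and 2 stood apart from the other arrays, with median correlations to the rest of 0.972 and 0.987 over 13501 tested genes, against at least 0.995 for each of the other 10. The SD between embryos of a genotype had a median over genes of 0.07 in acd, 0.21 in double, 0.10 in p53 and 0.06 in wt. Y-linked transcripts were present in 3 of 3 acd, 1 of 3 double, 3 of 3 p53 and 1 of 3 wt embryos. All 20 markers of heart, nervous system, blood, liver, somite, mesenchyme and vessels that were looked up were measured, and in each genotype none lay below the array median in all of its arrays, as the whole embryo label implies. Acd itself measured 8.22 to 8.31 in acd and 8.24 to 8.44 in double arrays, against 8.84 to 9.05 in p53 and 8.99 to 9.00 in wt arrays. Every array with homozygous acd lay below every array without it. Where the Acd probe set lies relative to the mutation is not given in the labels.

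Elmo3 measured 7.57, 7.65 and 7.85 in acd embryos. In double mutants it measured 7.96, 7.35 and 7.52. The p53 embryos gave 5.16, 4.66 and 4.76, and the wt embryos 5.53, 5.24 and 5.12. The 6 arrays with homozygous acd were all high and the 6 without it all low, with no overlap and an empty interval of 1.82 between the highest low array and the lowest high array. In rank within an array, Elmo3 lay above 71.9% to 74.5% of all probe sets in acd and 69.9% to 76.3% in double arrays, against 39.6% to 46.9% in p53 and 46.8% to 52.2% in wt arrays. It thus ranked in the upper part of the measured range in every array with homozygous acd and near the middle in every other. In RNA of whole embryos, more cells of a type and more transcript per cell cannot be told apart.

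**Figure D1:**
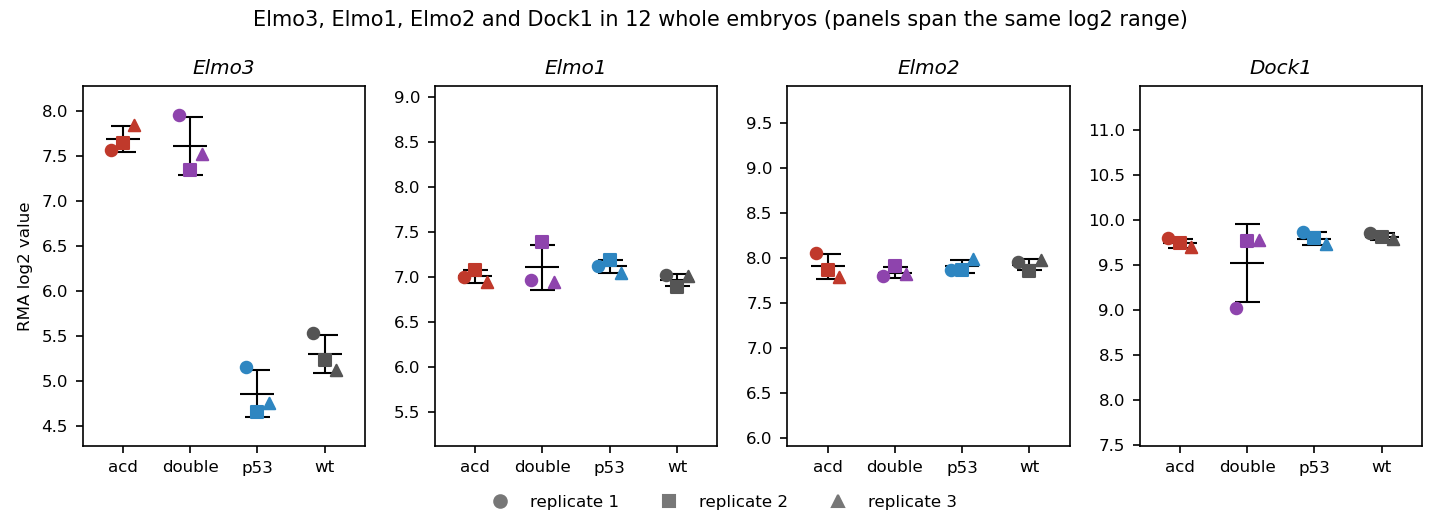
RMA log2 values of Elmo3, Elmo1, Elmo2 and Dock1 (the probe set with the highest mean of each) by genotype. Coloured symbols are single embryos, shaped by replicate number, bars are mean and SD of 3 embryos, and the 4 panels span the same log2 range. Elmo3 lies at 7.35 or above in all acd and double embryos and at 5.53 or below in all p53 and wt embryos, while the other 3 genes differ little apart from Dock1 in double replicate 1, at 9.02.

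How far the low Elmo3 values lie above background was read from 33 measured genes of later or adult tissues, such as protamines, milk proteins and pituitary hormones. Their median over genes and arrays was 3.92, and the 95th percentile of their values lay between 5.28 and 5.62 in the 12 arrays. None of the 33 had a mean as high as the lowest acd or double value of Elmo3, whereas 6 had a mean at or above the p53 mean of Elmo3 and 2 at or above its wt mean. Transcripts of the Y chromosome gave a second guide: 3 Y-linked genes read 3.16 to 3.98 in the 4 embryos without Y transcripts. Elmo3 in wt and p53 embryos was therefore not separated from background by the first guide, although it lay above the second.

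Elmo3 averaged 7.69 ± 0.14 in acd embryos and 5.30 ± 0.21 in wt embryos (SD, n = 3 each), a measured difference of 2.40. It averaged 7.61 ± 0.32 in double mutants and 4.86 ± 0.26 in p53 embryos (SD, n = 3 each), a measured difference of 2.76. Because the low values lie near background, floored differences were formed by raising each low array to its array median where Elmo3 lay beneath it. Flooring can only make a difference smaller, so the folds that follow are cautious values and not sizes corrected for background. On that scale Elmo3 averaged 4.86-fold higher in acd than in wt embryos and 4.77-fold higher in double mutants than in p53 embryos. With the 95th percentile of the tissue genes as the floor both values were 4.87-fold. They take up background only as a floor, carry no interval and come from the arrays on which Elmo3 was chosen. Of the 13501 tested genes 2, or 0.0148%, passed an adjusted p of 0.05 in acd against wt and 1, or 0.00741%, in double against p53, and no support is drawn from Elmo3 being among them, as it was chosen on these contrasts. With double replicate 3 as the only double array, a value the choice of Elmo3 also used, the double minus p53 difference was 2.67.

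The contrasts of p53 loss with and without homozygous acd were not those on which Elmo3 was chosen, but they use the same arrays. That acd and double embryos both read high was given by that choice, so their closeness is no independent result. In the homozygous acd background Elmo3 averaged 7.61 in double mutants and 7.69 in acd embryos, a difference of -0.08 ± 0.17 (SE), with a 95% interval of -0.46 to 0.30 (limma, adjusted p = 0.854). The 2 genotypes overlapped, double replicate 1 being the highest of all 12 arrays and double replicates 2 and 3 lying below every acd embryo. Among embryos whose labels name no acd allele, Elmo3 averaged 4.86 in p53 and 5.30 in wt embryos. The difference was -0.44 ± 0.17 (SE) with an interval of -0.82 to -0.06. The unadjusted p of 0.0278 did not pass after adjustment over all genes (limma, adjusted p = 1), and p53 replicates 2 and 3 lay below every wt embryo while replicate 1 did not. In either comparison 0 of 13501 genes, or 0%, passed limma's test, with 1700 genes in double against acd and 98 in p53 against wt at an unadjusted p under 0.05. In order of genotype means, acd and double embryos stood together at the top and wt and p53 embryos together at the bottom, as the choice of Elmo3 implies. Neither difference passed after adjustment over all genes, although the interval of p53 minus wt, at levels near background, lay below 0. The acd difference was larger without p53 than with it by 0.36, a value that starts from levels near background and is given without a test.

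Within the genotypes that held embryos with and without Y transcripts, the embryo with them had the highest Elmo3 value, at 7.96 in double and 5.53 in wt embryos. With sex as a term of the fit, which rests on those 2 genotypes alone and on double replicate 1, the acd minus wt difference was 2.10 and the double minus p53 difference 3.05. The tested p53 minus wt difference was -0.73 in that fit and again did not pass (limma, adjusted p = 0.785). The part of sex in these values was not tested further. Epithelial markers were higher in acd than in wt embryos in 16 of 16 tested genes, with a median of 0.15 against -0.006 over all genes. Of these markers 0 passed, against 0.0148% of all tested genes. Among them Cdh1, the epithelial cadherin, measured 0.23 ± 0.13 (SE) and Epcam, an epithelial adhesion molecule, 0.21 ± 0.13 (SE), both with a limma adjusted p of 1. In double against p53 embryos 10 of the 16 were higher and 6 lower, with a median of 0.03. The smallest p there was that of Esrp1, which was lower, at -0.27 ± 0.10 (SE) (limma, adjusted p = 0.463). In double against acd embryos 2 were higher and 14 lower, with a median of -0.09 and 0 passing. Summed over the 17 measured epithelial markers, the log2 values ran from 126.1 to 130.5 in acd and 123.6 to 128.7 in double embryos, against 123.2 to 128.3 in p53 and 125.3 to 126.6 in wt embryos. One marker of this list lay below the array median throughout each genotype, and the part of epithelial content in the Elmo3 values was not tested.

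**Figure D2:**
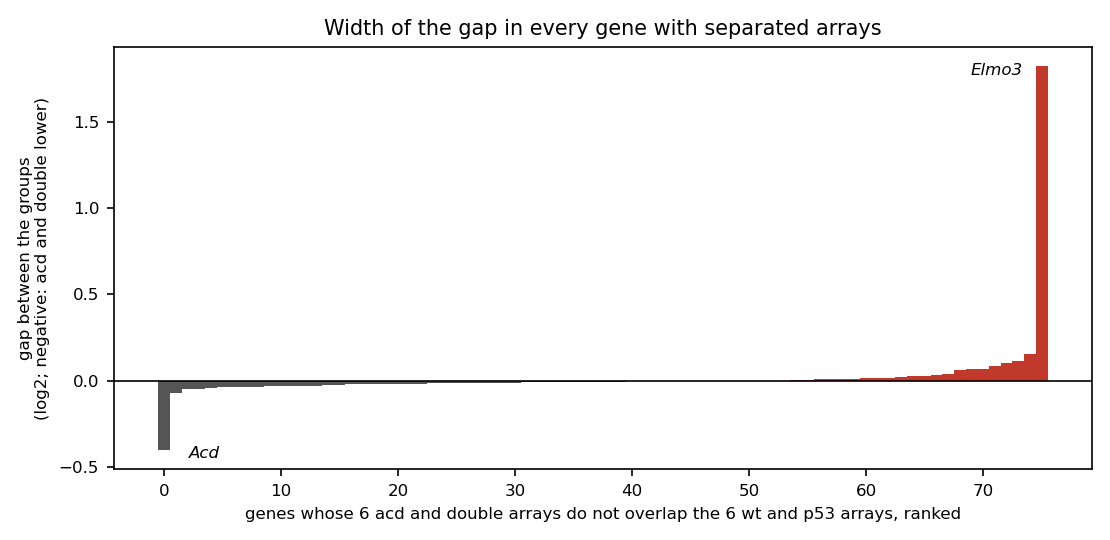
Each bar is 1 of the 76 tested genes whose 6 acd and double arrays do not overlap their 6 p53 and wt arrays, and its height is the empty log2 interval between the 2 sets of arrays, positive where acd and double are higher. Elmo3, which was chosen for its high values in these acd and double arrays, has a gap of 1.82. Acd has one of 0.40 on the opposite side, and the next gene on either side reaches 0.16 and 0.07.

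Separation of the 6 homozygous acd arrays from the other 6 was shared by few genes. Elmo3 was chosen for its high values in those 6 arrays, so its own place here is a description and no support. In 23 of 13501 genes, or 0.17%, every acd and double array lay above every p53 and wt array, and in 53, or 0.393%, every one lay below. Among those higher, the widest gaps after the 1.82 of Elmo3 were those of Hspa1b, an inducible heat shock protein (0.16), Usp18, an interferon-induced protease (0.11), Gm3912 (0.10) and Cmah, a sialic acid hydroxylase (0.09). Cmah in all arrays, and Usp18 in all but double replicates 1 and 2, lay under the array medians. Hspa1b measured 7.71, 7.75 and 7.79 in acd embryos and 8.33, 8.50 and 7.74 in double mutants, against 7.45, 7.47 and 6.97 in p53 and 7.28, 7.36 and 7.55 in wt embryos. Its acd and wt embryos thus differed by far less than those of Elmo3. Among those lower, Acd led with a gap of 0.40, followed by Hmgxb4 (0.07), Lrfn3 (0.05), Ccdc61 (0.05) and Med16, a Mediator subunit (0.04).

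When each gene's 12 values were centred and divided by their SD, the profiles most like that of Elmo3 were those of Fgl1, a liver-secreted fibrinogen-like protein, Cebpb, a stress and inflammation transcription factor, and Gm3912. Their root mean square differences from the Elmo3 profile were 0.48, 0.54 and 0.55 SD units, against a median of 1.37 over all tested genes. The likeness is one of shape and not of size: Fgl1 ran from 4.31 to 4.77 over the 12 arrays and Cebpb from 7.07 to 7.50, where Elmo3 ran from 4.66 to 7.96. The values of Fgl1 lay under the array medians, at the level of the background genes.

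**Figure D3:**
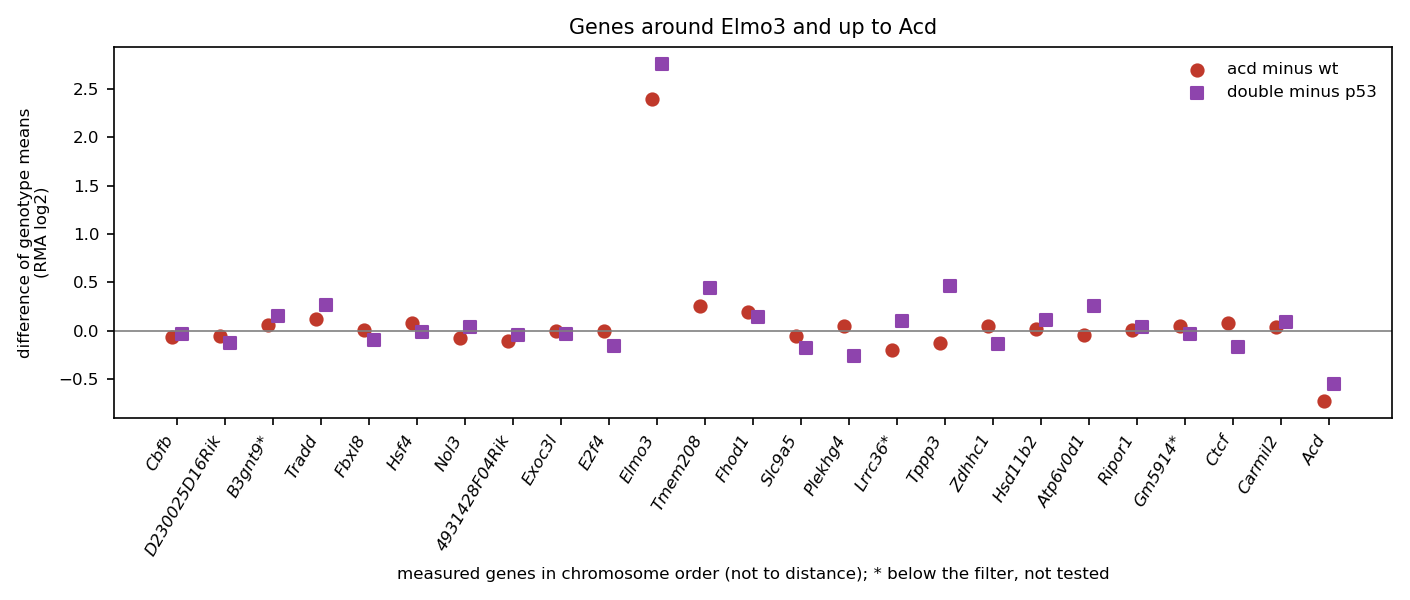
Differences of genotype means in RMA log2 for the measured genes around Elmo3 and up to Acd, in chromosome order and not to distance, with acd minus wt as circles and double minus p53 as squares. Elmo3 stands at 2.40 and 2.76 and Acd at -0.73 and -0.55, while the genes between them lie from -0.26 to 0.46.

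Elmo3 and Acd both lie on chromosome 8, with 15 protein-coding genes between them in the RefSeq annotation of GRCm38.p6, whereas Elmo1 lies on chromosome 13, Elmo2 on chromosome 2 and Dock1 on chromosome 7. E2f4, a transcriptional repressor of cell cycle genes, and Lrrc29 flank Elmo3. Besides Acd, 23 measured neighbours were examined, namely 10 on each side of Elmo3 and the rest of the 13 that lie between it and Acd, and 20 of the 23 were tested. None of the 20 passed limma's test in acd against wt or in double against p53, against 0.0148% and 0.00741% of all tested genes. Their differences ran from -0.13 to 0.25 in acd against wt and from -0.26 to 0.46 in double against p53, with medians of 0.01 and -0.02. E2f4 averaged 5.98 ± 0.07 in acd and 5.97 ± 0.03 in wt embryos (SD, n = 3 each).

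The nearest measured gene on the Acd side, Tmem208, which encodes a membrane protein of the endoplasmic reticulum, had the largest positive difference of these neighbours in acd against wt. It measured 10.12, 10.12 and 10.09 in acd embryos and 11.01, 10.07 and 10.06 in double mutants, against 9.90, 10.03 and 9.89 in p53 and 9.86, 9.79 and 9.92 in wt embryos. All 6 arrays with homozygous acd lay above the other 6, as in 0.17% of all tested genes, yet the differences of 0.25 ± 0.20 (SE) in acd against wt (limma, adjusted p = 1) and 0.44 in double against p53 (limma, adjusted p = 0.463) did not pass. The spread behind these tests includes double replicate 1, the highest of the 12 arrays for Tmem208. Fhod1, a formin, came next, averaging 8.17 ± 0.03 in acd and 7.98 ± 0.03 in wt embryos (SD, n = 3 each). Its value of 7.96 in double replicate 2 lay within the range of the p53 embryos. Tradd, an adaptor of tumour necrosis factor receptor signalling, followed with 0.12 ± 0.17 (SE). The lowest differences in acd against wt were those of Lrrc36 (-0.20, below the filter and untested), Tppp3 (-0.13) and 4931428F04Rik (-0.11). In double against p53 the highest was that of Tppp3, at 0.46 (limma, adjusted p = 0.463), just over that of Tmem208. All acd and double embryos are homozygous for the acd allele, and DNA close to it is inherited with it, so an effect of the allele on Elmo3 and a sequence difference in linked DNA, also one under the array's probes, cannot be told apart. Elmo3 was read by 1 probe set, and no second one was measured against which to set it.

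Elmo1, the paralog prominent in blood cells and the nervous system, did not follow Elmo3. It measured 7.00, 7.08 and 6.95 in acd embryos, 6.97, 7.39 and 6.95 in double mutants, 7.13, 7.19 and 7.05 in p53 and 7.02, 6.89 and 7.01 in wt embryos. Double replicate 2 was the highest of all arrays, and the other 11 lay within 6.89 to 7.19. Its acd minus wt difference was 0.04 ± 0.11 (SE, pooled over all genotypes), with a 95% interval of -0.21 to 0.28 (limma, adjusted p = 1). With the acd and wt arrays alone the SE was 0.06 (limma, adjusted p = 0.845). The double minus p53 difference was -0.02 ± 0.11 (SE), with an interval of -0.26 to 0.23 (limma, adjusted p = 0.95). These intervals correspond to at most a 1.21-fold higher level in acd and a 1.17-fold higher level in double embryos. All p53 embryos lay above all wt embryos, as in 3.42% of tested genes, with a difference of 0.15 ± 0.11 (SE) that did not pass (limma, adjusted p = 1). In double against wt embryos it was 0.13 ± 0.11 (SE), and -0.01 without double replicate 2. With weights estimated per array, which gave 1.61 to double replicate 2 against 0.068 and 0.246 for replicates 1 and 3, it was 0.36 (limma, adjusted p = 0.0265). In that weighted fit 1805 of 13501 genes passed in double against wt.

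The array in which Elmo1 was highest also carried macrophage transcripts. Relative to wt, the mean of 16 macrophage markers lay at 0.88 in double replicate 2, at 1.36 in replicate 1 and at -0.25 in replicate 3. Elmo1 was not raised in replicate 1, where those markers were highest, and the part of macrophages in its values was not tested. Summed over the 16 markers, the log2 values ran from 89.6 to 95.4 in acd and 90.1 to 115.8 in double embryos, against 90.9 to 96.5 in p53 and 92.8 to 95.4 in wt embryos, and 4 of the markers lay below the array median throughout acd, 0 throughout double, 4 throughout p53 and 3 throughout wt embryos. Profiles most like that of Elmo1 were those of Grasp, Dab2, an endocytic adaptor, and Dnajb5, a DnaJ co-chaperone, at 0.42, 0.44 and 0.45 SD units, against a median of 1.37. The other Elmo1 probe sets read low. Probe set 1450208_a_at ranged from 4.40 to 5.03 and 1446610_at from 3.57 to 3.99 over the 12 arrays, under the array medians. The first measured 0.20 in acd against wt and 0.02 in double against p53 and passed neither (limma, adjusted p 1 and 0.972), and the second did not pass the filter on low values.

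Elmo2, the broadly expressed paralog, was the steadiest of the 4 genes. It measured 8.06, 7.87 and 7.79 in acd embryos, 7.80, 7.91 and 7.83 in double mutants, 7.87, 7.87 and 7.99 in p53 and 7.96, 7.86 and 7.98 in wt embryos. The genotypes overlapped throughout, and the whole span of the 12 arrays was 7.79 to 8.06. In acd against wt the difference was -0.02 ± 0.08 (SE), with an interval of -0.21 to 0.16 (limma, adjusted p = 1), which allows a level of up to 1.12-fold. In double against p53 it was -0.07 ± 0.08 (SE), with an interval of -0.25 to 0.12 (limma, adjusted p = 0.721). A second probe set above the array medians, 1436011_at, ran from 5.94 to 6.12 and gave -0.02 and 0.01 in these comparisons. Profiles most like that of Elmo2 were those of Btbd10, Kcnab2, a potassium channel subunit, and Rora, a nuclear receptor, at 0.55, 0.59 and 0.64 SD units against a median of 1.32, and Btbd10 spanned no more than 8.69 to 8.83.

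**Figure D4:**
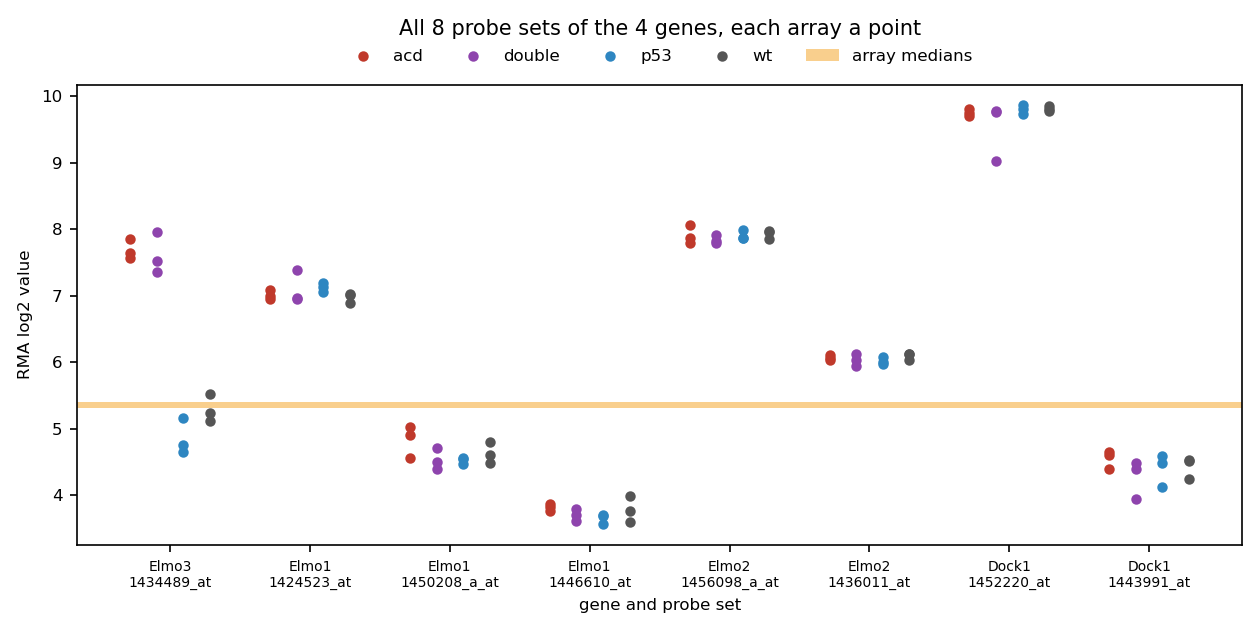
RMA log2 values of all 8 probe sets of Elmo3, Elmo1, Elmo2 and Dock1, 1 point per embryo, coloured by genotype, with the range of array medians (5.32 to 5.40) as a band. Elmo3 lies above the band in all acd and double embryos and near or below it in p53 and wt embryos, whereas each of the other probe sets stays on 1 side of it in all 12 arrays.

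Dock1, the Rac exchange factor that Elmo proteins bind, measured 9.80, 9.74 and 9.70 in acd embryos, against 9.85, 9.81 and 9.78 in wt embryos. In double mutants it measured 9.02, 9.76 and 9.77, against 9.86, 9.80 and 9.73 in p53 embryos. Double replicate 1 stood alone at 9.02, and the other 11 arrays spanned 9.70 to 9.86. The acd minus wt difference was -0.07 ± 0.16 (SE), with an interval of -0.42 to 0.28 (limma, adjusted p = 1). That SE is pooled over all genotypes. With the acd and wt arrays alone the difference was -0.07 ± 0.05 (SE) (limma, adjusted p = 0.63). The double minus p53 difference was -0.27 ± 0.16 (SE), with an interval of -0.62 to 0.08 (limma, adjusted p = 0.486), and it was -0.03 without double replicate 1. With sex as a term, which sets double replicate 1 apart from the other double mutants, it was -0.50 (limma, adjusted p = 0.0929). All 3 double mutants lay below all wt embryos, as in 8.24% of tested genes, with a difference of -0.29 ± 0.16 (SE) (limma, adjusted p = 0.474), or -0.05 without double replicate 1. In the comparison of double with wt embryos 2 genes, or 0.0148%, passed.

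The low Dock1 value belonged to an array that was extreme for many genes. Double replicate 1 was the lowest of the 12 arrays for 4103 of 13501 genes, or 30.4%, and the highest for 4404, or 32.6%. The profiles most like that of Dock1 were those of Atad2b, Ankrd11, a chromatin regulator, and Snrnp200, a spliceosomal helicase, each at 0.14 SD units against a median of 1.40. The second Dock1 probe set, 1443991_at, lay below the array medians at 3.94 to 4.66 and did not pass the filter. It too was lowest in double replicate 1, at 3.94.

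**Figure D5:**
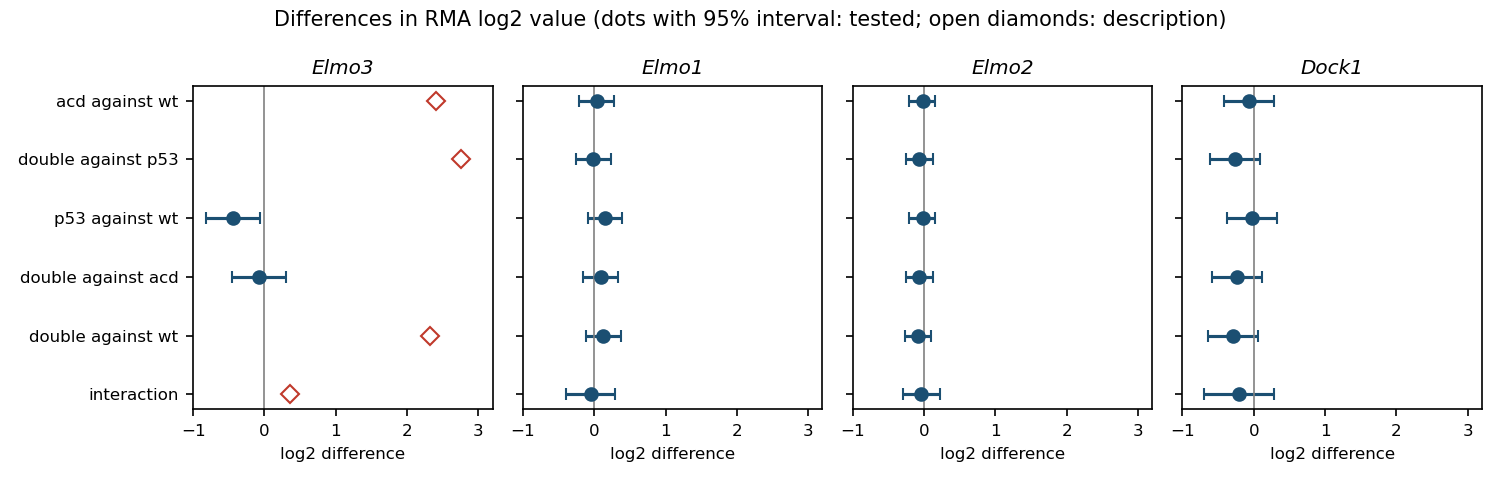
Differences in RMA log2 value in 6 comparisons, all panels on the same scale. Dots with bars are limma estimates with their 95% interval over 12 arrays, and open diamonds mark Elmo3 differences that were used to choose it and carry no test. Every interval of Elmo1, Elmo2 and Dock1 includes 0 and ends between -0.70 and 0.39, while the diamonds of Elmo3 stand at 2.40, 2.76 and 2.32 in the comparisons of homozygous acd with p53 or wt embryos, and at 0.36 in the interaction.

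Over the 6 comparisons, the 18 tests of Elmo1, Elmo2 and Dock1 gave differences from -0.29 to 0.15. None passed limma's test, the lowest adjusted p being 0.474, and 0 had an unadjusted p under 0.05. The interaction, which asks whether the acd difference depends on p53, was -0.05 ± 0.16 (SE) for Elmo1, -0.04 ± 0.12 (SE) for Elmo2 and -0.21 ± 0.23 (SE) for Dock1, with limma adjusted p of 0.947, 0.943 and 0.887. It passed for 0 of 13501 genes, or 0%, with 531 at an unadjusted p under 0.05. The intervals were narrowest for Elmo2 and widest for Dock1, whose spread rests on double replicate 1.

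Relatives outside the 4 genes were looked up next. In acd against wt 0.0148% of all tested genes passed, and in double against p53 0.00741%. Elmod1, Elmod2 and Elmod3, proteins with an Elmo domain of which Elmod2 is a GTPase-activating protein for Arl2, passed in neither acd against wt nor double against p53. Elmod1 measured 4.43, 4.34 and 4.30 in acd embryos against 4.81, 4.50 and 4.52 in wt embryos, and 5.78, 5.52 and 4.15 in double mutants against 4.45, 4.76 and 4.35 in p53 embryos. It was thus high in double replicates 1 and 2, the arrays that stood apart, and low in replicate 3. Of the Dock family besides Dock1, 9 of the 10 others were tested, 0 of which passed, with a median of -0.08 in acd against wt and of -0.08 in double against p53. Dock8, an exchange factor for Cdc42 in immune cells, measured 5.75, 6.05 and 5.47 in double mutants against 5.30, 5.54 and 5.36 in p53 embryos (0.36 ± 0.13 SE, limma adjusted p = 0.463). Dock5, a Rac exchange factor close to Dock1, measured 5.99, 6.73 and 7.10 in double mutants against 6.94, 7.05 and 7.13 in p53 embryos (-0.43 ± 0.20 SE, limma adjusted p = 0.466). As with Dock1, the lowest double value was that of replicate 1.

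Genes that act beside Elmo and Dock were measured as well. Among all tested genes 0.0148% passed in acd against wt and 0.00741% in double against p53. Of 15 tested genes around Rac, among them Rac1, Rhog, the adaptors Crk and Crkl and members of the actin-regulating Wave complex, 0 passed in acd against wt or in double against p53. Their medians were 0.00 and -0.06, and their differences ran from -0.17 to 0.09 and from -0.29 to 0.34. Nckap1, a Wave complex subunit, measured -0.22 ± 0.09 (SE) and Pak2, a kinase activated by Rac, -0.18 ± 0.08 (SE) in double against p53, both with a limma adjusted p of 0.463. Of 18 tested receptors and bridging proteins of engulfment, 0 passed in either comparison, with medians of -0.06 and 0.09. In double against p53 the smallest p-values were those of Gulp1, an engulfment adaptor, at 0.27 ± 0.10 (SE), Stab2, a scavenger receptor for phosphatidylserine, at -0.24 ± 0.10 (SE), and Axl, a receptor for Gas6 on dying cells, at 0.47 ± 0.21 (SE), each with a limma adjusted p of 0.463. Itgb3, the integrin beta chain that pairs with alpha v, measured -0.54 ± 0.34 (SE) in acd against wt (limma, adjusted p = 1), whereas its means were 5.90 in double and 5.17 in p53 embryos, a difference of 0.73 that did not pass either. In these lists 14 of 18 engulfment genes were higher in double against p53 and 6 of 18 in acd against wt, while all genes had medians of -0.009 and -0.006. In the first of these comparisons 15 of 15 tested macrophage markers were higher as well, with a median of 0.79 and 0 passing, against 5 of 15 and a median of -0.03 in the second, and their part in the engulfment list was not tested.

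Interferon-induced genes read high in the double mutant arrays that stood apart. Of 7 tested genes of this list 7 were higher in double against p53, with a median of 1.97. Of these 0 passed limma's test, against 0.00741% of all tested genes. Rsad2, Irf9 and Usp18 each had a limma adjusted p of 0.463. The mean of the 11 measured genes lay 3.73 and 3.36 above wt in double replicates 1 and 2, 0.20 in double replicate 3 and 0.13 to 0.19 in acd embryos. Elmo3, whose values in these arrays were used to choose it, measured 7.96 and 7.35 in double replicates 1 and 2, 7.52 in double replicate 3 and 7.57 to 7.85 in acd embryos. The part of the interferon response in its values was not tested.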

How the data were processed

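Log2 expression values of 12 arrays were used as deposited. The authors normalized scanner files with justRMA (background correction, quantile normalization, probe set summary) per the series' design text, which also names BRB-ArrayTools 4.4.0 for choosing genes. No detection calls or scan dates were used here. The table held 45101 probe sets (64 controls), of which 34945 had 1 gene symbol and 932 several; 9211 were not listed in the platform annotation. For each gene the probe set of highest mean was kept, and it was tested where 3 or more arrays placed it above their 40th percentile (13501 of 18193 genes). Of the 8 probe sets of the 4 genes, 6 passed this filter on their own. limma 3.58.1 in R 4.3.3 fitted 1 mean per genotype over the 12 arrays, leaving 8 residual degrees of freedom, with two-sided moderated tests and Benjamini-Hochberg adjustment over all genes of a comparison. The fit was also run on simulated data in which a gene had the same SD in every genotype. That run does not cover the wider spread of the double mutants. Replicates are called biological in the titles, and nothing says that they came from separate litters, so p-values measure the spread between these embryos. The number of arrays limits the precision.

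The members, gene lists, comparisons and settings were chosen with earlier results of these data known. Genes named are the 4 members, Acd, and by rule at most 3 per list by smallest p, 3 neighbours per direction, 5 genes per direction by gap and 3 per member by likeness; E2f4 was named as the flanking gene. Alternatives were a replicate block, other probe set rules, filters, normalizations and variance models, array weights, subsets of arrays and sex as a term. Promoter and protein sequences of the 4 genes were not used here.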

Additional observations from a re-analysis of the deposited data

How the results depend on the processing

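Elmo3 in acd against wt lay between 2.31 and 2.51 and in double against p53 between 2.58 and 2.91 when each array was left out in turn, and between 2.14 and 2.45 in double against wt and 0.19 and 0.51 in the interaction. Sex as a term moved its acd minus wt value to 2.10, its double minus p53 value to 3.05 and the interaction to 0.95, and turned double against acd to 0.22. It moved the tested p53 minus wt value of Elmo3 to -0.73. It also turned Dock1 to 0.16 in acd against wt and 0.21 in p53 against wt, and moved it to -0.50 in double against p53, -0.45 in double against acd and -0.66 in the interaction, with no call. The causes were not tested.

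Some differences of the other genes changed sign. The probe set of largest SD, 1450208_a_at, also taken on its own, gave Elmo1 0.02 in double against p53, -0.11 in p53 against wt, -0.29 in double against acd and -0.09 in double against wt. The mean of all probe sets gave Elmo1 0.01, -0.03, -0.10 and -0.01 in the same order, and Dock1 0.03 in acd against wt. Elmo2 by probe set 1436011_at gave 0.01 in double against p53 and 0.03 in the interaction. Array weights gave Elmo1 0.21 in double against p53, 0.15 in the interaction and 0.36 in double against wt, and Dock1 0.02 in the interaction. Elmo1 passed in that double against wt fit, as did 1805 of 13501 genes in all. Without double replicates 1 and 2, Elmo1 was -0.05 in double against acd and -0.02 in double against wt, and Dock1 0.03 in double against acd and 0.05 in the interaction.

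Leaving out each array in turn gave some ranges that reach or cross 0. For Elmo1 these were -0.01 to 0.07 in acd against wt, -0.16 to 0.06 in double against p53, -0.05 to 0.17 in double against acd, -0.01 to 0.21 in double against wt and -0.20 to 0.02 in the interaction. For Elmo2 these were -0.10 to 0.04 in acd against wt, -0.06 to 0 in p53 against wt, -0.12 to 0.01 in double against acd and -0.10 to 0.03 in the interaction. For Dock1 these were -0.05 to 0.01 in p53 against wt, -0.35 to 0.02 in double against acd and -0.33 to 0.04 in the interaction, and for Elmo3 -0.25 to 0.05 in double against acd. The other ranges stayed on 1 side of 0, namely 0.11 to 0.19 for Elmo1 and -0.59 to -0.32 for Elmo3 in p53 against wt, -0.10 to -0.03 and -0.12 to -0.06 for Elmo2 in double against p53 and against wt, and -0.10 to -0.04, -0.40 to -0.03 and -0.42 to -0.05 for Dock1 in acd against wt, double against p53 and double against wt. No test of Elmo1, Elmo2 or Dock1, nor either of Elmo3, passed in these fits.

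With the replicate number as a block, Elmo3 was 2.40 in acd against wt and 2.76 in double against p53, and no test of a member changed its side of the threshold. That fit called 1 gene in acd against wt and 1 in double against wt, against 2 each without the block. The deviations of 7 of 18 same-numbered pairs correlated over 0.1, within a range of -0.23 to 0.39. All 6 pairs of replicates 2 and 3 among acd, double and p53 were among these 7, at 0.13 to 0.39, while those with wt ran from -0.23 to 0.15. By a rule that asked for every pair over 0.1, the numbers were not treated as pairing the arrays. Whether some of the same-numbered arrays share a source of variation was not tested. Counts over all genes rested on double replicate 3: without it 1756 genes passed in double against p53, 1876 in double against acd, 1646 in double against wt and 439 in the interaction. Array weights gave 122, 1774, 1805 and 0. Without double replicates 1 and 2, the counts were 28, 31, 26 and 25. In that fit the lone double array is assumed to vary like the other genotypes. The levels of Elmo3 in p53 and wt embryos lie within the range of the background genes, which limits that comparison.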
